A study of Sus scrofa with 28 samples.

Results

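Complex I of the mitochondrial respiratory chain is described here through its nuclear genes, as 47 protein-coding RefSeq genes of the pig build Sscrofa11.1 whose symbols begin with NDUF, out of 19484 protein-coding genes on the same chromosomes as the listed peaks. They fall into 7 core subunits, 30 accessory subunits, 8 assembly factors (NDUFAF) and 2 genes, NDUFA4 and NDUFA4L2, that keep an NDUF symbol without being counted as complex I subunits. A further NDUFA4 entry annotated as a pseudogene was left out. A gene counted as listed in a library when the centre of a peak lay within 1000 bp of either annotated end.

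ATAC-seq, in which a transposase cuts accessible DNA, was run on livers from female pigs of the Zlotnicka White breed, native to Poland, at 180 days of age and about 100 kg. The libraries form 4 groups of 7, namely high fat 200, low fat 200, high fat 600 and low fat 600, where fat content is the trait in the series title and the meaning of 200 and 600 is not stated. All groups shared breed, sex, age, feeding and housing, and all liver samples were digested with Accutase, strained and frozen before library preparation. The labels name no animals, so p-values measure the spread between libraries, and all 200 libraries ran on one lane and all 600 libraries on another.

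Complex I takes electrons from NADH to ubiquinone and pumps protons across the inner mitochondrial membrane, and hepatocytes depend on it to oxidise fatty acids. Its core subunits carry the redox groups or the proton channels, the accessory subunits surround and stabilise them, and the assembly factors help to build the enzyme without staying in it. The hydrophobic core subunits are encoded in mitochondrial DNA, outside the chromosomes analysed here. The roles given below are known from the human and bovine enzyme.

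The number of listed peaks, the only measure of yield in the list, ranged from 39 to 17652 per library. Hepatocyte marker genes were listed in at least 1 library for 8 of 12 genes (66.7%), with APOB, ASGR1, CPS1 and HNF4A at none. The listed share was 47.0% for all protein-coding genes and 52.9% for those with a symbol. Markers of macrophages were listed for 1 of 8 genes (CD14), of lymphocytes for 2 of 8, of erythroid cells for 1 of 5, of endothelial and stellate cells for 0 of 8 and of cholangiocytes for 0 of 5. In whole liver, a peak in fewer cells and a weaker opening per cell cannot be told apart.

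Peaks at gene ends were found for most NDUF genes. At least 1 library listed 35 of the 47 genes (74.5%), beside 47.0% of all protein-coding genes and 52.9% of those with a gene symbol. At least 7 of the 28 libraries listed 12 of the 47 (25.5%), beside 14.8% of all protein-coding genes. Without high fat 200 replicate 1 the count was 7 (14.9%) beside 12.4% of all genes, and without low fat 200 replicate 1 it was 7 (14.9%) beside 12.6%. The median gene was listed in 3 libraries, and the median of all protein-coding genes was 0. A single library listed 1 of the 47 genes, NDUFS3, beside 2274 of the 19484 protein-coding genes. No set test was made, and these shares describe the list.

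Among the core subunits, listed for 4 of 7 genes, NDUFS1 stood first with 9 libraries. The listed share was 57.1%, beside 47.0% of all protein-coding genes and 52.9% of those with a symbol. At least 7 libraries listed 14.3% of the core genes, beside 14.8% and 16.98%. NDUFS1, the largest iron-sulfur subunit of the NADH-oxidising part, was listed in 1 high fat 200, 3 low fat 200, 2 high fat 600 and 3 low fat 600 libraries. Its peaks lay on chromosome 15 between 109451134 and 109452559, around the upper end of the gene (109413726 to 109451813). The deposited −log10 p was 5.92 in high fat 200 replicate 1, 5.67, 3.98 and 4.30 in low fat 200 replicates 1, 6 and 7, 3.86 and 4.92 in high fat 600 replicates 1 and 7, and 3.47, 3.47 and 3.85 in low fat 600 replicates 1, 6 and 7. The listed high fat values lay above the listed low fat values in both labels, with 1 high fat library listed in the 200 set and 2 in the 600 set. High fat 200 replicate 1 and high fat 600 replicate 7 had the most peaks of their labels, 17652 and 6453. The share of all genes with such an order was not counted, and a link of peak strength with fat was not tested.

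NDUFV2, an iron-sulfur subunit of the NADH-oxidising part, was listed in 6 libraries, 4 high fat and 2 low fat (−log10 p from 3.41 to 4.62, median 4.00). NDUFS8 and NDUFS3, subunits of the part that hands electrons to ubiquinone, were listed in 2 libraries and 1 library. No library listed an end of NDUFV1, which binds NADH and flavin, or of NDUFS7, an iron-sulfur subunit next to the ubiquinone site. The nearest peak to an end of NDUFV1 in any library was 8290 bp away and that of NDUFS7 2637 bp. The 4 listed core genes thus had counts of 9, 6, 2 and 1 libraries, and the other 3 had none.

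Accessory subunits were listed for 23 of 30 genes (76.7%), and 6 of them (20% of the 30) in at least 7 libraries. For all protein-coding genes these shares were 47.0% and 14.8%, and for those with a symbol 52.9% and 16.98%. NDUFA11, a subunit of the membrane arm, led with 13 libraries, 3 high fat 200, 4 low fat 200, 2 high fat 600 and 4 low fat 600. Its peaks spanned 73129723 to 73131304 on chromosome 2. The −log10 p was 5.13, 4.49 and 6.43 in high fat 200 replicates 1, 3 and 7, and 5.22, 4.22, 4.68 and 4.58 in low fat 200 replicates 1, 4, 6 and 7. In the 600 libraries it was 5.04 and 5.78 in high fat replicates 1 and 7, and 4.63, 3.67, 3.64 and 4.68 in low fat replicates 1, 4, 6 and 7. The highest value of each label was a high fat library. The ranges overlapped in the 200 set and did not in the 600 set, where 2 high fat libraries were listed. Here too the share of all genes with such an order was not counted. High fat 600 replicates 1 and 7 had 4455 and 6453 peaks, the most of the 600 set.

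NDUFA5, a subunit of the matrix arm, and NDUFAB1, the mitochondrial acyl carrier protein, were listed in 8 libraries each, 4 high fat and 4 low fat. NDUFA13, also known as a cell death regulator, was listed in 7 libraries with a median −log10 p of 5.16 (3.42 to 6.55). Its 5 libraries of the 200 set reached 4.18 or more, and its 2 libraries of the 600 set, both low fat, were at 3.47 and 3.42. NDUFB2 and NDUFB5, subunits of the membrane arm, were also in 7 libraries each, with median −log10 p of 3.74 and 4.58. NDUFB2 was the weaker of the pair, at most 4.48 in any library.

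NDUFA8, NDUFA9 and NDUFB6 were listed in 6 libraries each, and NDUFB3, NDUFB4 and NDUFC2 in 4 each. NDUFA10, NDUFB11, NDUFS4, NDUFS6 and NDUFV3 were listed in 3 each, and NDUFA2, NDUFA6, NDUFA12, NDUFB7, NDUFB10 and NDUFC1 in 2 each. NDUFS4 and NDUFS6 belong to the NADH-oxidising part, where NDUFS6 binds zinc. No library listed NDUFA1, NDUFA3, NDUFA7, NDUFB1, NDUFB8, NDUFB9 or NDUFS5.

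Assembly factors were listed for 7 of 8 genes (87.5%), and 4 of them (50% of the 8) in at least 7 libraries. The shares of all protein-coding genes were 47.0% and 14.8%. Differences between the roles were not tested. NDUFAF4, which acts with NDUFAF3 on the ubiquinone-binding part, was listed in 13 libraries, 4 high fat 200, 4 low fat 200, 2 high fat 600 and 3 low fat 600. Its peaks spanned 64044177 to 64045500 on chromosome 1. The −log10 p was 8.31, 4.12, 3.93 and 7.13 in high fat 200 replicates 1, 4, 5 and 7, and 5.53, 4.07, 4.52 and 7.52 in low fat 200 replicates 1, 4, 6 and 7. In the 600 libraries it was 4.57 and 5.07 in high fat replicates 1 and 7, and 4.30, 3.47 and 4.53 in low fat replicates 1, 6 and 7. The fat groups overlapped in the 200 set, and the 2 high fat values of the 600 set lay above the 3 low fat values. Ranked within its own library, the 600 peak of high fat replicate 1 stood at percentile 72.8, below 73.8 in low fat replicate 1. By rank the fat groups of the 600 set thus overlapped too. How many of all genes show such an order was not counted. The 2 high fat libraries of the 600 set had 4455 and 6453 peaks, the most of that set. The value of 8.31 was the highest of all 191 end peaks of the NDUF genes.

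NDUFAF2, a paralogue of NDUFA12 that takes its place during assembly, was listed in 11 libraries, 3 high fat 200, 4 low fat 200, 2 high fat 600 and 2 low fat 600. Its −log10 p ranged from 3.75 to 6.40 (median 4.78). NDUFAF6 was listed in 7 libraries, as was NDUFAF8, a partner of NDUFAF5. NDUFAF5 itself, a hydroxylase that modifies NDUFS7, was listed in 6. NDUFAF7, a methyltransferase, was listed in low fat 200 replicates 1 and 7, and NDUFAF3 in high fat 600 replicates 1 and 7. NDUFAF1, a factor for the membrane arm, was not listed, and the nearest peak to one of its ends was 25525 bp away.

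NDUFA4, now placed in cytochrome c oxidase, was listed in 14 libraries, more than any gene counted as part of complex I. They were 2 high fat 200, 4 low fat 200, 4 high fat 600 and 4 low fat 600 libraries, and the peaks spanned 80643400 to 80644959 on chromosome 9. The −log10 p was 6.82 and 6.85 in high fat 200 replicates 1 and 7, and 6.40, 4.22, 4.52 and 6.13 in low fat 200 replicates 1, 4, 6 and 7. In the 600 libraries it was 5.59, 3.73, 3.84 and 6.21 in high fat replicates 1, 3, 4 and 7, and 5.76, 3.32, 4.13 and 6.09 in low fat replicates 1, 4, 6 and 7. The 2 high fat 200 values lay above the 4 low fat 200 values, and the fat groups of the 600 set overlapped. As for the genes above, the share of all genes with such an order was not counted. High fat 200 replicates 1 and 7 had 17652 and 11943 peaks, the most of the 200 set. NDUFA4 was the only NDUF gene listed in high fat 600 replicate 4, which had 190 peaks, and in high fat 600 replicate 3, which had 1336. Its paralogue NDUFA4L2, a gene induced by low oxygen, was not listed, with the nearest peak 5274 bp from an end.

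**Figure D1:**
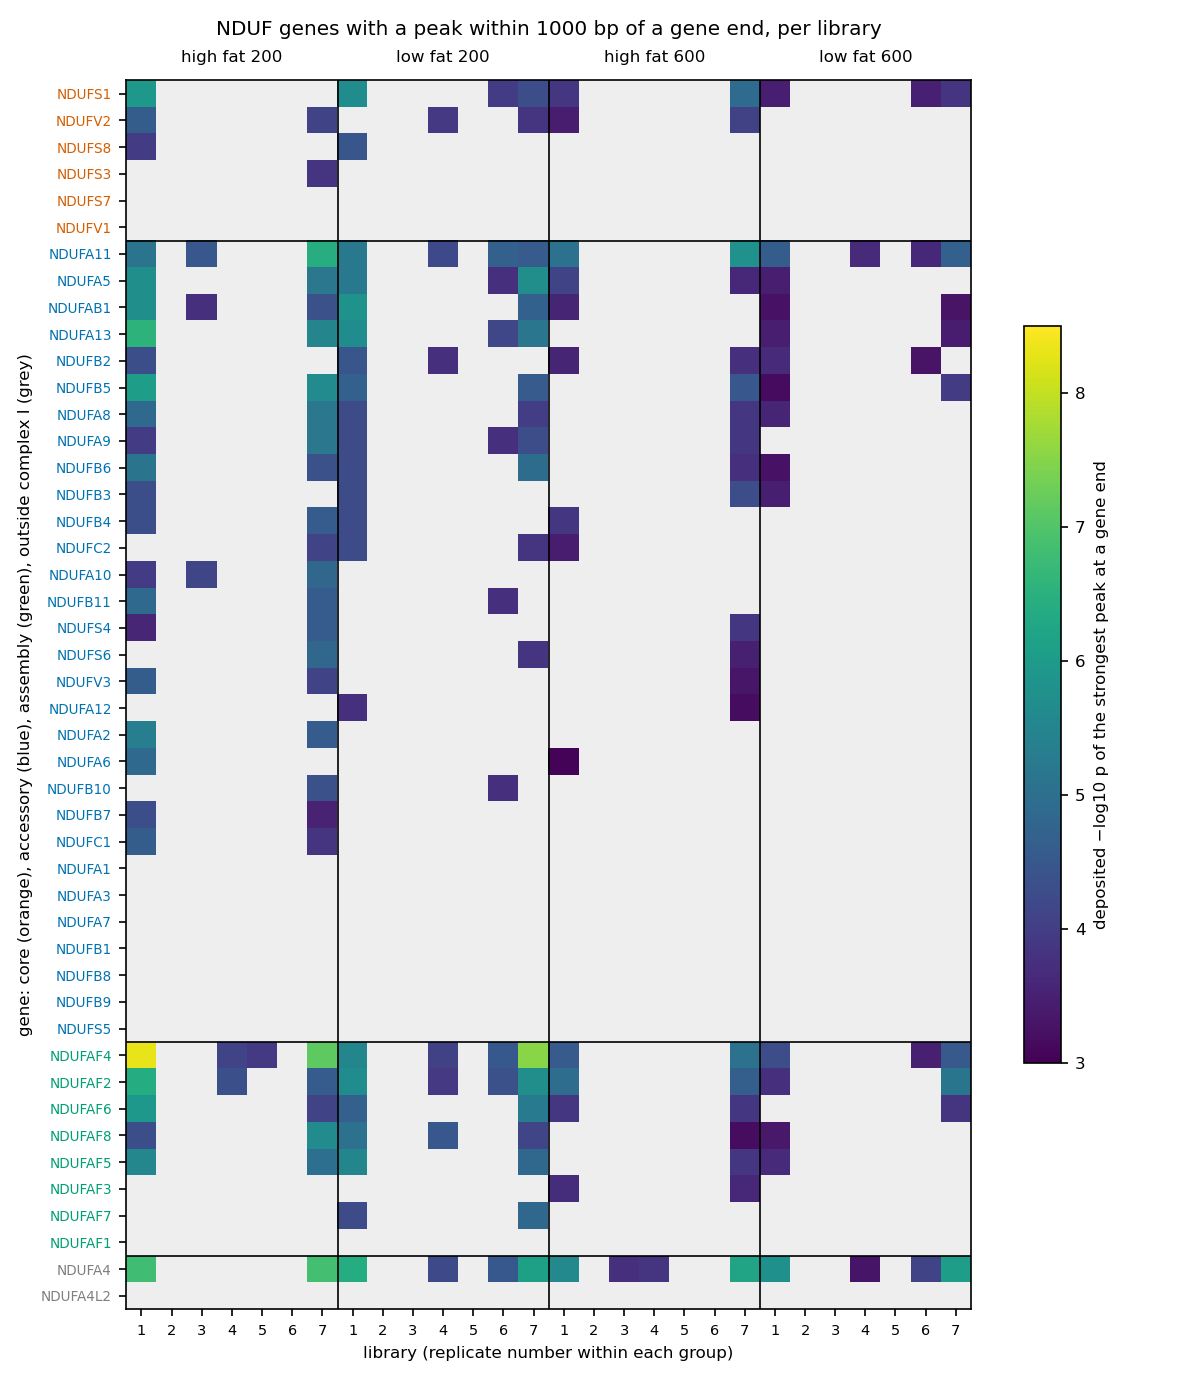
Each row is an NDUF gene (46 of the 47), grouped by role, and each column a library, grouped by label and fat. Colour gives the deposited −log10 p of the strongest peak within 1000 bp of a gene end, and light grey marks no listed peak. Filled cells gather in replicates 1 and 7 of every group, and the lowest row of each block holds a gene with no peak in any library.

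The number of NDUF genes listed in a library varied with its number of peaks. In the 200 set, high fat replicates 1 and 7 listed 28 and 27 of the 47 genes, and the other 5 high fat libraries at most 3. Low fat 200 replicates 1, 7, 6 and 4 listed 22, 19, 10 and 7, and the other 3 none. In the 600 set, high fat replicates 7 and 1 listed 21 and 14 and the others at most 1, while low fat replicates 1, 7, 6 and 4 listed 15, 9, 5 and 2 and the others none. The 11 libraries that listed no NDUF gene had 39 to 635 peaks.

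In libraries with many peaks, the share of NDUF genes with an end peak lay above that of all genes. High fat 200 replicate 1 listed 59.6% of the NDUF genes and 36.3% of all protein-coding genes, and high fat 600 replicate 7 listed 44.7% and 21.7%. Of the 15 libraries with at least 1000 peaks, 13 listed a larger share of NDUF genes than of all protein-coding genes, and 11 a larger share than of protein-coding genes with a symbol. High fat 200 replicate 3 was one of the exceptions. It had 6288 peaks but listed 3 NDUF genes (6.38%), NDUFA10, NDUFA11 and NDUFAB1, beside 8.12% of all protein-coding genes. The other exception against all genes was high fat 200 replicate 5, with 2.13% beside 2.90%. Over all libraries, 14.2% of the gene-by-library cells of the NDUF genes were filled, beside 8.54% for all protein-coding genes and 9.71% for those with a symbol.

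**Figure D2:**
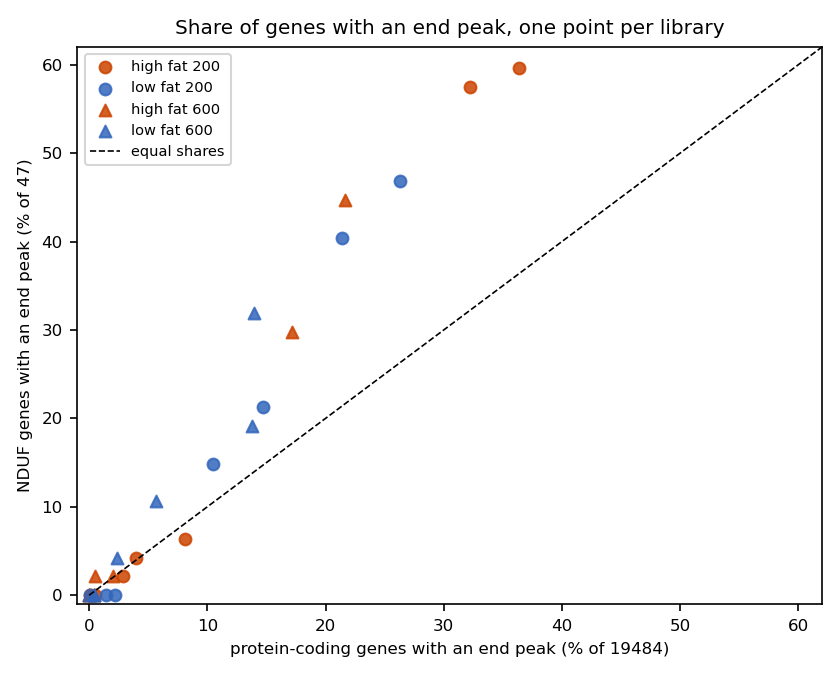
Each point is a library, placed by the share of all protein-coding genes (x, %) and of NDUF genes (y, %) with a peak within 1000 bp of a gene end. Circles are 200 and triangles 600 libraries, orange is high and blue low fat, and the dashed line marks equal shares. Of the 15 libraries with at least 1000 peaks, 13 lie above the line.

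The end peaks of the NDUF genes were frequent rather than strong. Their median −log10 p was 4.30, from 3.05 to 8.31, beside 4.42 for all peaks at ends of protein-coding genes. Ranked within their own library, they had a median percentile of 47.0 beside 59.3. In 10 of the 17 libraries with such a peak, the median −log10 p of the NDUF end peaks was below that of all end peaks, and in 3 it was above. The 3 were high fat 200 replicate 4 and high fat 600 replicates 3 and 4, which held 1 or 2 such peaks each.

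When only the top decile of peaks by strength in each label was kept (−log10 p of at least 6.17 in the 200 and 5.28 in the 600 libraries), 5 of 47 NDUF genes (10.6%) were still listed, beside 11.4% of all protein-coding genes. NDUFA4 was kept in 7 libraries, NDUFAF4 in 3, NDUFA11 in 2, and NDUFA13 and NDUFAF2 in 1 each. No core subunit was among them. At that strength the share of NDUF genes was close to the share of all genes.

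Peaks sat close to the annotated end. The median distance between a peak's centre and the nearer end was 87 bp for the NDUF genes and 150 bp (149.5) for all protein-coding genes, and 86.4% of the NDUF end peaks lay within 250 bp beside 68.8%. Of the 35 listed genes, 33 had peaks at a single end. NDUFA9 and NDUFA10 had peaks at both. The share of all listed protein-coding genes with peaks at a single end was not counted. The annotation used here gives no strand, so a start and a stop of transcription were not told apart.

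NDUFA11 differed from the other recurrent genes in position. Its 13 peaks were centred 327.5 to 875 bp outside the gene (median 617 bp), and no other annotated gene end lay within 1000 bp of any of them. The peaks of NDUFA4 were centred from 45 bp inside to 322 bp outside the gene end (median 50.8 bp outside). Those of NDUFAF4 were centred at a median of 91.5 bp outside, and those of NDUFAF2 at a median of 145.5 bp inside the gene. The farthest accepted centre was the 875 bp of NDUFA11 in low fat 200 replicate 6. Just beyond the window lay 15 peaks of 6 members up to 2467.5 bp away, the nearest of them at NDUFB6, 1135.5 bp away in low fat 200 replicate 1.

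**Figure D3:**
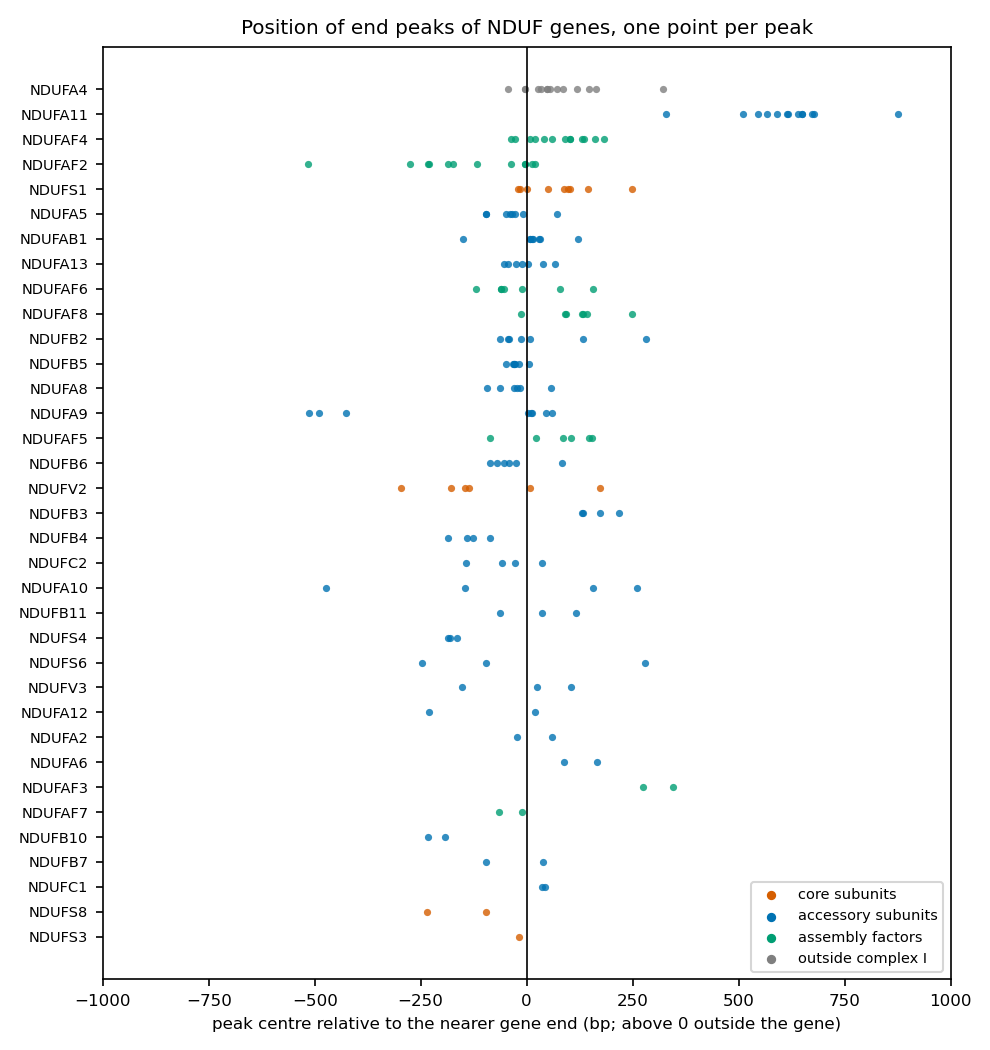
Each point is 1 peak of a listed NDUF gene, placed by the distance of its centre from the nearer gene end (x, bp, above 0 outside the gene), with genes ordered by the number of listing libraries. Most points lie within 250 bp of the end, and the 13 peaks of NDUFA11 lie 327.5 to 875 bp outside it.

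The bodies of these genes held almost no peaks. Between the windows at their ends, 3 of the 46 NDUF genes longer than 2000 bp had a peak (6.52%), 4 peaks in all, beside 32.7% of the 17872 protein-coding genes of such length. The NDUF genes are shorter, with a median length of 7166 bp beside 20698 bp, and the part of length in this difference was not tested. NDUFAF2 and NDUFS4, the longest with 180389 and 111221 bp, had no peak between their windows. The 12 genes without an end peak had none in the body either, and for 4 of them the nearest peak was less than 5000 bp from the gene.

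For 18 of the 35 listed NDUF genes (51.4%), a peak also lay within 1000 bp of an end of another gene, beside 36.0% of the 9164 listed protein-coding genes. Such a peak cannot be assigned to one of the pair. NDUFAF2 ended 67 bp from ERCC8, a gene of nucleotide excision repair, and all 12 of its peaks lay near both. NDUFS1 ended 87 bp from EEF1B2, a translation elongation factor, and all 9 of its peaks were shared. NDUFB5 ended 22 bp from MRPL47, a mitochondrial ribosomal protein gene, with 7 shared peaks, and NDUFAF5 36 bp from ESF1, with 6.

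NDUFA5 and ASB15 lay 77 bp apart with 8 shared peaks, NDUFAF8 and TEPSIN 281 bp apart with 7, and NDUFA13 and TSSK6 707 bp apart with 7. NDUFAF6 lay 79 bp from a gene model without a symbol, with 7 shared peaks. NDUFA8 and MORN5 overlapped by 54 bp and shared 6 peaks. NDUFA9 lay 40 bp from AKAP3 and shared 5 of its 8 peaks, while its other 3 lay at the opposite end, at −426 to −513 bp, where negative values are inside the gene. Of the 5 genes listed in most libraries, NDUFA4, NDUFA11 and NDUFAF4 had no other annotated gene end within 1000 bp of a peak.

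High against low fat content, the question of the series title, gave no complex I gene past the threshold in the 200 libraries. Presence per gene was compared by Fisher's exact test, two-sided, with Benjamini-Hochberg adjustment over the 5191 protein-coding genes listed in at least 3 of the 14 libraries, and 0 of the 21 NDUF genes tested passed an adjusted p of 0.05 (background 0%). At an unadjusted p under 0.05 the count was also 0 of 21, and 0 of 5191 (0%) for all genes. With 7 libraries against 7 the smallest possible p of this test is 0.000583, and 5 libraries against none give 0.021. The smallest Fisher p reached by any gene was 0.0699, here and in the other fat comparisons below. Even a p of 0.000583 could pass the adjustment only if many genes reached it. The 0 calls thus cannot decide whether listing differs with fat. NDUFA10, an accessory subunit of the membrane arm, was listed in 3 high fat and 0 low fat libraries (p = 0.192 by Fisher's exact test, adjusted p = 1), in replicates 1, 3 and 7. These did not share 1 site. Replicate 1 had a peak at each end of the gene, replicate 3 at 1 end only and replicate 7 at the other. Each end alone thus held 2 peaks, below the minimum of 3 libraries for a test. NDUFS1 was listed in 1 high fat and 3 low fat libraries (exact p = 0.559) and NDUFA4 in 2 and 4 (exact p = 0.592).

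By direction, 4 of the 21 genes were listed in more high fat than low fat libraries, 10 in fewer and 7 in equal numbers. Among all genes tested 27.6% were listed in more high fat libraries and 44.2% in fewer. The lean towards low fat libraries was thus also present in all genes. As a total, the NDUF genes were listed 61 times in the high fat 200 and 58 times in the low fat 200 libraries, or 8.71 ± 12.9 and 8.29 ± 9.25 genes per library (SD, n = 7 each). By role, core subunits were listed 5 and 6 times, accessory subunits 41 and 31 times, assembly factors 13 and 17 times and NDUFA4 2 and 4 times. The ranges per library overlapped, from 0 to 28 and from 0 to 22.

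In the 600 libraries 10 NDUF genes could be tested, and 0 passed by Fisher's exact test (background 0% of 2704 genes), with 0 at an unadjusted p under 0.05 as well. NDUFA11 was listed in 2 high fat and 4 low fat libraries (exact p = 0.592, adjusted p = 1), and the other 9 genes had an exact p of 1. The NDUF genes were listed 37 times in high fat and 31 times in low fat libraries, 5.29 ± 8.60 and 4.43 ± 5.74 genes per library (SD, n = 7 each). Core subunits were listed 4 and 3 times, accessory subunits 19 and 16 times, assembly factors 10 and 8 times and NDUFA4 4 times in each fat group.

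With both labels in 1 comparison, a gene counted once for each of the 14 pairs of a 200 and a 600 library with the same fat group, replicate number and title number. Of 22 NDUF genes tested, 0 passed by Fisher's exact test (background 0% of 5446 genes), and 0 did at an unadjusted p under 0.05. NDUFA10 again had the smallest p, with 3 high fat pairs and 0 low fat pairs (exact p = 0.192, adjusted p = 1). The difference of the fat effect between the labels, for which high and low fat were exchanged among the pairs in an exact permutation test, passed for 0 of 25 NDUF genes (background 0% of 5741 genes). At an unadjusted p under 0.05 it held 0 NDUF genes and 4 of all genes (0.0697%). The smallest exact p of an NDUF gene was 0.192, again for NDUFA10, followed by 0.462 for NDUFA4, NDUFA5 and further genes tied with them (adjusted p = 1 for each).

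The 600 libraries listed fewer complex I genes than the 200 libraries, without a gene past the threshold. Of 25 NDUF genes tested over 14 against 14 libraries, 21 were listed in fewer 600 libraries, 3 in more and 1 in equal numbers, and among all 5741 genes tested 84.1% were listed in fewer. By Fisher's exact test 0 NDUF genes passed (background 0%), and at an unadjusted p under 0.05 there were 0 NDUF genes beside 237 of all genes (4.13%). NDUFA9 was listed in 1 of the 600 and 5 of the 200 libraries (exact p = 0.165, adjusted p = 0.831). NDUFA10 and NDUFB11 were listed in 0 and 3 (exact p = 0.222, adjusted p = 0.831). NDUFA4, NDUFB2 and NDUFS1 were the 3 listed in more 600 libraries, NDUFA4 in 8 of them and 6 of the 200 libraries (exact p = 0.706).

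Within the pairs of libraries, an NDUF gene was listed in at least 1 library of a pair in 129 cases. Both libraries listed it in 58 cases (45.0%), the 200 library alone in 61 (47.3%) and the 600 library alone in 10 (7.75%). For all protein-coding genes the shares were 41.5%, 53.6% and 4.92%. The 10 cases with the 600 library alone came from NDUFA4, NDUFAF3 and NDUFB2 with 2 each and from NDUFS1, NDUFB3, NDUFC2 and NDUFA12 with 1 each. NDUFA4 was listed in both libraries of 6 pairs, in the 600 library alone of 2 pairs and in the 200 library alone of none.

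Where both libraries listed a gene, the 600 peak was wider in 54 of 58 cases and had the lower −log10 p in 56 of 58. Median widths were 530 bp in the 200 and 995.5 bp in the 600 libraries, and median −log10 p values 5.14 and 3.85. All protein-coding genes moved alike, with 91.0% wider and 95.7% lower. The largest fall in NDUFAF4 was from 8.31 to 4.57 in high fat replicate 1. The 2 cases with a higher 600 value were NDUFA11 in low fat replicate 7 (4.58 and 4.68) and NDUFAF2 in high fat replicate 7 (4.60 and 4.67). The label and the sequencing lane cannot be told apart.

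**Figure D4:**
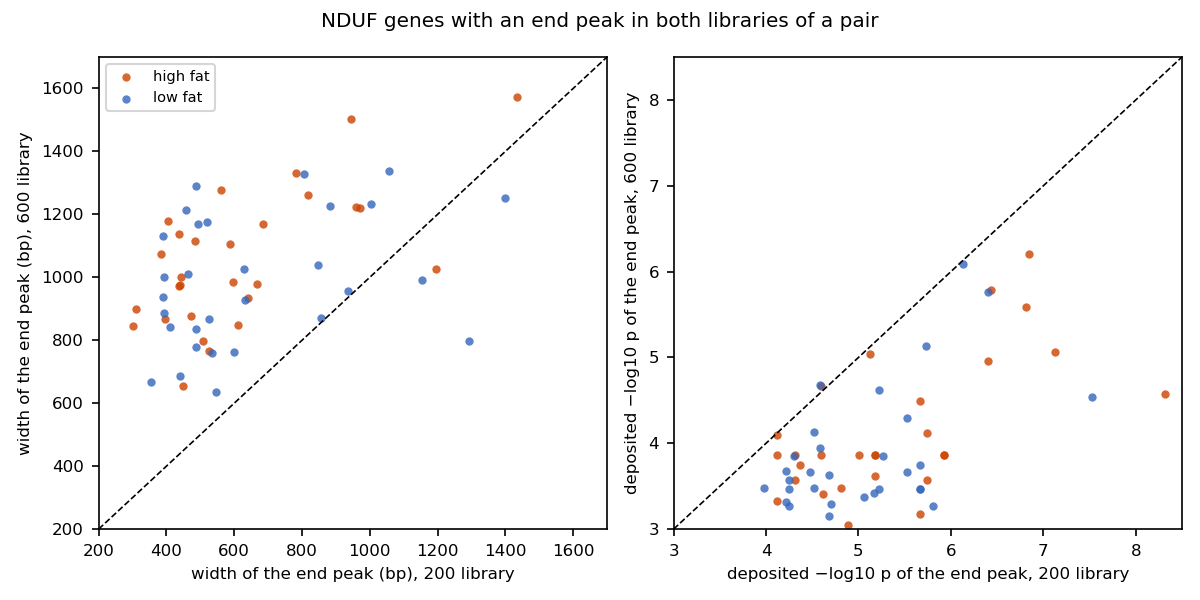
Each point is an NDUF gene listed in both libraries of a pair, 58 in all, with the 200 library on the x axis and the 600 library on the y axis. The left panel gives peak width in bp and the right panel the deposited −log10 p, and the dashed line marks equal values. Most points lie above the line for width (54) and below it for −log10 p (56).

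Most of the further complex I assembly factors and regulators of mitochondrial biogenesis examined were also listed, on short lists. Of 12 further assembly factors of complex I, 9 matched a protein-coding symbol, and 7 of the 9 were listed (77.8%). The share was 47.0% for all protein-coding genes and 52.9% for those with a symbol. FOXRED1 led with 14 libraries, TMEM126B, a membrane arm factor, had 11, and TIMMDC1 and TMEM126A had 7 each, while ACAD9 and NUBPL, named after their values were seen, had none. COA1, DMAC1 and DMAC2 were not matched. Of 10 regulators of mitochondrial biogenesis, 8 were listed (80.0%), beside the same 47.0% and 52.9%. GABPA, a transcription factor of respiratory genes, and TFB1M were in 14 libraries each, TFB2M, a mitochondrial transcription factor, in 12. PPARGC1A, a coactivator of mitochondrial biogenesis, and GABPB1, named after their values were seen, were in none. By fat, GABPA was listed in 3 high fat and 5 low fat libraries of the 200 set and in 3 of each in the 600 set.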

How the data were processed

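The authors deposited 1 peak list over 28 libraries, 84192 peaks on 19 chromosomes, with no read counts, so sequencing depth is unknown and no interval from counts is given. Genrich, Picard, SAMtools, BWA and FastQC appear, per the submitters' processing notes, beside the build Sscrofa11.1, while roles and versions are not given in the sources used here. Per the file headers, each peak has a position, a deposited score, a deposited signal value (never below 400) and a p-value column. With values up to 7881, the deposited p-value column was taken to hold −log10 p. It is the authors' value for each peak and also carries the library's unknown depth. An unlisted end can be closed, thinly sequenced or filtered out.

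Peak starts were taken as counting from 0 and made 1-based. Gene ends came from the RefSeq table, which gives no strand. Tests ran over all protein-coding genes listed in at least 3 libraries, with code tested on simulated data. Members and lists were chosen with earlier results of these data known. Named were the 10 genes listed in most libraries, all core subunits, assembly factors and unlisted genes, the 3 genes with the smallest p per comparison (those at 1 left out), up to 10 genes with shared ends and, in brief, the others. One gene is counted but not reported singly here. Tests used scipy 1.17.1, tables pandas 2.3.3 and numpy 2.4.6, and plots matplotlib 3.10.9, under Python 3.11.15.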

Additional observations from a re-analysis of the deposited data

How the results depend on the processing

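The count of 35 listed NDUF genes stayed between 30 and 39 under the other settings run, except with the top decile of peaks, where it was 5. Without each library in turn it was 34 to 35, and NDUFS3 was lost without high fat 200 replicate 7. The count of 12 genes in at least 7 libraries fell to 4 (8.51%, beside 8.13% of all genes) with peaks stronger than the median of their label and to 1 (2.13%, beside 1.46%) with the top decile, shares near those of all genes. It was 7 to 12 without each library in turn, and 7 (14.9%) without high fat 200 replicate 1 (12.4% of all genes) or low fat 200 replicate 1 (12.6%), since 5 of the 12 genes were listed in exactly 7 libraries. The fat comparisons and the difference of the fat effect gave 0 calls over all genes in every setting run. At an unadjusted p under 0.05 there were at most 15 (200 libraries), 7 (600), 7 (both) and 34 (difference) genes. Such tests can pass the adjustment only if many genes reach the smallest possible p, so these 0 calls do not show a stable result. For the 600 against 200 comparison, windows of 2500 and 5000 bp gave 2 and 3 calls among all genes, none of them an NDUF gene. The fat difference of NDUFA4 in the 200 libraries turned from −28.6 to 14.3 percentage points with the top decile, and its difference between labels from 28.6 to −14.3 (the cause was not tested). With the replicate number as a block (exact sign test) all 4 comparisons had 0 calls, with 104 genes at an unadjusted p under 0.05 for 600 against 200. With 7 numbers the smallest two-sided p of this exact test is 0.0156, which could pass the adjustment only if a large share of all genes reached it, so the 0 calls of the fat comparisons say nothing about stability. Deviations from the group means correlated at 0.0332 to 0.782 within pairs of a 200 and a 600 library, over 0.1 in 13 of 14, and 9 of 14 libraries correlated best with their own number, so the numbers were not taken as a proven pairing. For high and low fat libraries of the same number the range was −0.287 to 0.798, over 0.1 in 11 of 14. The start-only alternative was not run, as the annotation used here has no strand. Unknown depth limits all shares, and 13 libraries had fewer than 1000 peaks.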
